A study of Brassica napus with 6 samples.

Results

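In seeds of oilseed rape (Brassica napus), 80 genes were picked whose difference between drought and control plants turned round between day 30 and the later days after flowering. They were taken from 26782 genes of middling abundance, out of 72611 genes in the deposited count table. RNA was sequenced from seeds of plants under drought stress from the start of flowering and from control plants, at 30, 40 and 50 days after flowering. Each treatment had 1 library per day, which makes 6 libraries, and all plants stood under a rain-proof shed. The growth label mentions 6 lines without saying which of them went into which library. A difference between lines or plants therefore cannot be told apart from drought, and no value for a single day has a replicate check.

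The members were chosen as follows. Each count was divided by a size factor of its library, which gives the scaled reads used throughout, and 10 was added before taking log2. The drought change of a day is drought minus control on that scale. Genes named with a Bna ID and a mean of 5 to 500 CPM (counts scaled to a common library total) over the 6 libraries were admitted. A gene met the pattern when its changes at days 40 and 50 had the same sign, its change at day 30 had the other sign, and each was at least 0.5 in size. Of the 262 genes that met it, the 80 with the largest smallest change were kept. They fall into 48 genes that were lower in drought at day 30 and higher at days 40 and 50, called raised here, and 32 that were higher at day 30 and lower at days 40 and 50, called lowered. Among all admitted genes the raised pattern was met by 0.504% and the lowered pattern by 0.474%. The members were thus selected on the drought changes themselves, so those changes are given below as a description with no test. By that choice all 48 raised genes were lower by at least 0.5 at day 30, as were 5.01% of admitted genes, and higher at days 40 and 50, as were 17.9% and 22.1%. All 32 lowered genes were higher at day 30, as were 4.64% of admitted genes, and lower at days 40 and 50, as were 17.7% and 23.7%.

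In this crop the embryo fills with oil and storage protein in the middle of seed development, and then dries. Abscisic acid, a hormone that rises in plants short of water, also drives that maturation. Seeds of the same calendar age can differ in stage, and a change of stage alters the levels of many transcripts. The files do not pair the gene IDs with gene names, and 0 IDs matched the RefSeq table of the Da-Ae assembly. The role of the members is therefore not given here, the seed label was not checked against marker genes, and only the 2 leading genes of each direction are printed by ID.

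The leading raised gene, BnaA05g14040D, named on chromosome A05, is 1195 bases long. It had 23.1, 2676 and 12695 scaled reads in drought seeds at days 30, 40 and 50, against 103, 189 and 3943 in control seeds. Control seeds thus held this transcript at a low level until day 40, while drought seeds were already high by that day. It was 4.435-fold lower in drought at day 30 (95% counting interval 3.03 to 6.63), 14.2-fold higher at day 40 (12.3 to 16.5) and 3.22-fold higher at day 50 (3.105 to 3.34). These intervals are exact binomial limits on the reads of 2 libraries and leave out differences between plants. The folds of the printed genes are ratios of scaled reads with nothing added.

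BnaC08g16850D, on C08 and 1953 bases long, was the second raised gene. It had 8.35, 3958 and 4882 scaled reads in drought seeds at days 30, 40 and 50, against 40.8, 1445 and 2021 in control seeds. Here both treatments were at or near their later level by day 40. At day 30 the levels rested on 13 reads in drought and 47 in control, and drought was 4.89-fold lower (counting interval 2.60 to 9.86). At days 40 and 50 it was 2.74-fold and 2.42-fold higher in drought (2.57 to 2.92 and 2.29 to 2.55).

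The leading lowered gene was BnaA04g16960D, on A04 and 2865 bases long. It had 205 scaled reads in drought seeds at day 30, then 23.6 and 16.8 at days 40 and 50, against 45.2, 249.9 and 147 in control seeds. The drought libraries had their highest level at day 30 and the control libraries their lowest. Drought was 4.55-fold higher at day 30 (counting interval 3.38 to 6.22), 10.6-fold lower at day 40 (6.195 to 19.6) and 8.75-fold lower at day 50 (5.20 to 15.7). Among the 80 members this gene had the largest smallest change, at 1.97 on the log2 scale.

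BnaC01g31340D, on C01 and 3051 bases long, followed it among the lowered genes. It had 178.5, 8.44 and 30.4 scaled reads in drought seeds at days 30, 40 and 50, against 63.4, 113 and 92.5 in control seeds. Control seeds stayed within a narrow range while drought seeds dropped after day 30. The drought level at day 40 rested on 5 reads, against 126 in control, and was 13.4-fold lower with a wide counting interval of 5.60 to 42.0. At day 30 drought was 2.81-fold higher (2.17 to 3.69), and at day 50 it was 3.04-fold lower (1.98 to 4.79).

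**Figure D1:**
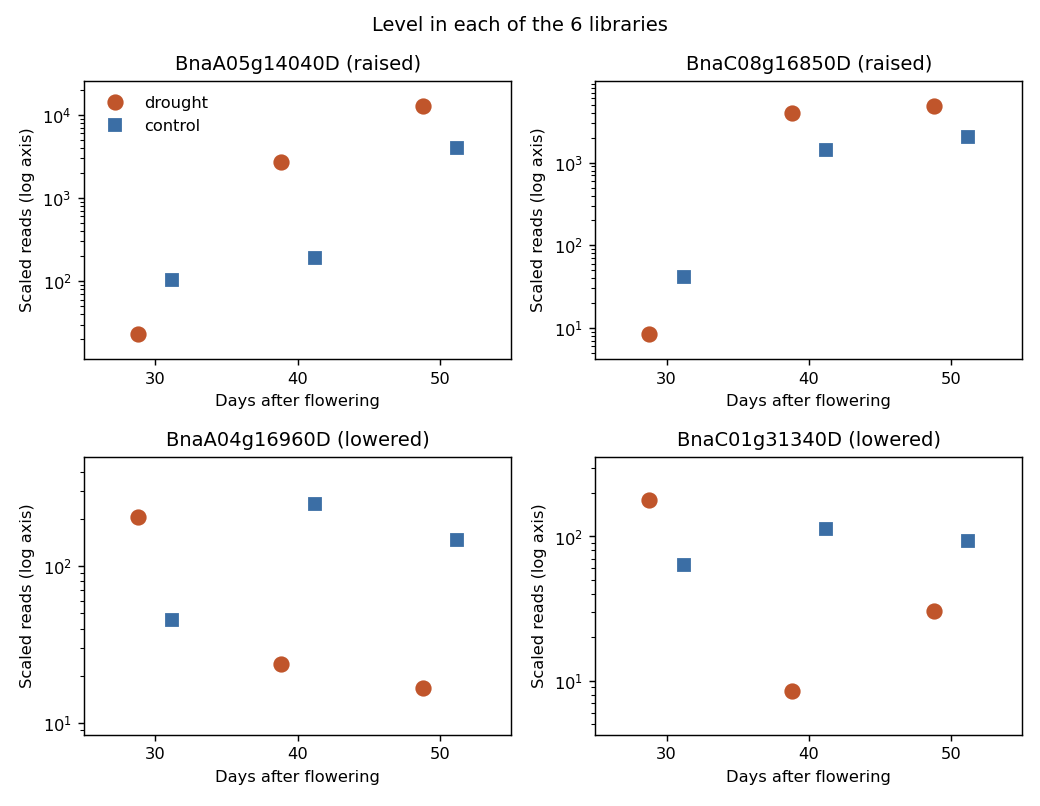
Level of the 4 printed genes in each of the 6 libraries, as scaled reads on a log axis against days after flowering, with drought as circles and control as squares. The drought point lies below the control point at day 30 and above it later for BnaA05g14040D and BnaC08g16850D, and the reverse for BnaA04g16960D and BnaC01g31340D.

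In drought seeds, 44 of the 48 raised members were at least 2-fold higher at day 50 than at day 30, and 2 were at least 2-fold lower. Of admitted genes, 16.2% were at least 2-fold higher. The choice favours such a rise, as it took genes below control at day 30 and above it at day 50. Nothing is therefore read from that gap. In drought at day 30 the raised members had a median of 28.25 scaled reads, with a range of 1.28 to 421. The control median was 69.1, with a range of 8.69 to 929. At day 40 the median was 647.5 in drought (15.2 to 5514) and 141 in control (3.595 to 2165). At day 50 it was 827 in drought (8.40 to 14286) and 300.5 in control (1.03 to 4152). The genes spread over orders of magnitude on every day, and the levels of different genes overlap widely between treatments, while each gene keeps its own order by selection.

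Raised members differed most in the size of the change at day 40. The drought change at day 30 had a median of -0.89 on the log2 scale and ran from -2.12 to -0.68. At day 40 the median was 1.46 with a range of 0.73 to 4.17, and at day 50 it was 1.21 with a range of 0.71 to 3.45. A change of at least 1, which is 2-fold on this scale, was seen in 18 of 48 at day 30, 34 at day 40 and 32 at day 50. Among all admitted genes, 0.706% were lower by that much at day 30, and 4.72% and 7.28% were higher at days 40 and 50. Since these changes chose the members, nothing is read from the gap. The change at day 30 was the smallest of the 3 in 29 of the 48, that of day 40 in 8 and that of day 50 in 11. The change was larger at day 40 than at day 50 in 27 genes, and smaller in 21.

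The 32 lowered members fell below control in drought seeds after day 30. Their median was 238 scaled reads in drought at day 30 (72.6 to 8567), against 125.5 in control (25.2 to 5210). At day 40 it was 83.6 in drought (8.44 to 2457) and 236 in control (51.2 to 6091). At day 50 it was 45.7 in drought (2.099 to 1558) and 165 in control (22.6 to 4281). From day to day the drought median declined, while the control median was highest at day 40.

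Within the lowered group the drought change at day 30 had a median of 0.78 and ran from 0.68 to 2.13. The median was -1.23 at day 40 (-2.95 to -0.67) and -1.39 at day 50 (-2.73 to -0.72). A change of at least 1 in size was seen in 5 of 32 at day 30, 23 at day 40 and 25 at day 50. Of all admitted genes, 0.556% were higher by that much at day 30, and 4.22% and 10.1% were lower at days 40 and 50. The change at day 30 was the smallest of the 3 in 22 of the 32 genes. In both directions the change at day 30 was thus the smallest in most members on this scale. A change of at least 1 on all 3 days was seen in 8 raised and 5 lowered genes. The size at day 30 depended on the number added before log2, mainly in the raised genes. Their median at day 30 was -1.18 with 1 added and -0.63 with 30 added. That of the lowered genes was 0.80 and 0.72.

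**Figure D2:**
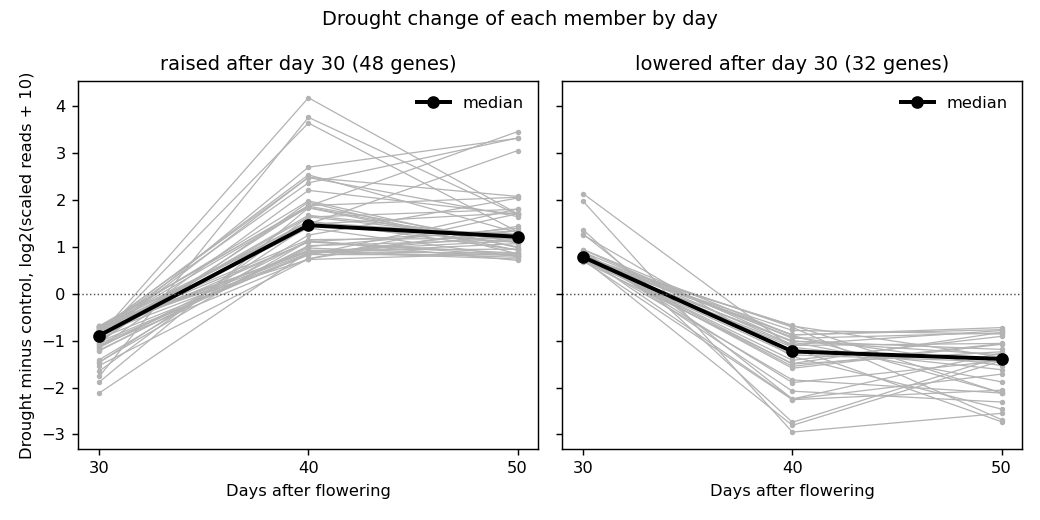
Drought change (drought minus control in log2 of scaled reads plus 10) of each member at days 30, 40 and 50, with raised genes on the left and lowered genes on the right. Thin lines are genes and the thick line is the median, at -0.89, 1.46 and 1.21 for the raised and 0.78, -1.23 and -1.39 for the lowered.

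The choice ended without a gap in values. The last member, a lowered gene of 1533 bases, had changes of 0.70, -0.67 and -2.12 at days 30, 40 and 50. The first gene left out, a raised gene of 576 bases, had -0.67, 1.98 and 1.15. In 4 raised and 6 lowered members at least 1 library held fewer than 10 reads, with 1 read as the fewest among raised and 2 among lowered.

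**Figure D3:**
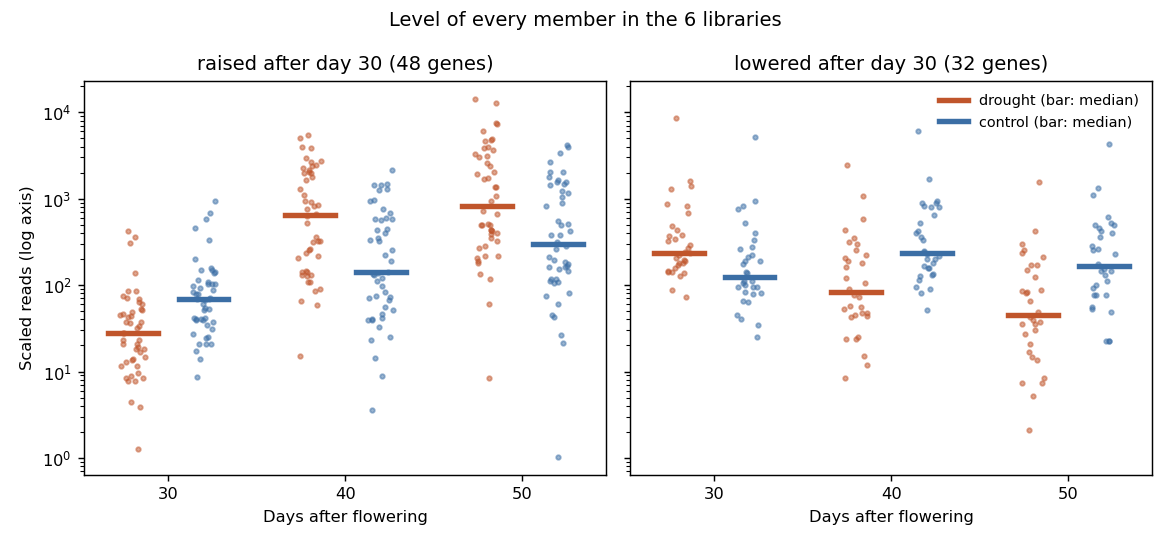
Scaled reads (log axis) of every member by day, with drought left of control on each day, raised genes in the left panel and lowered genes in the right. Points are genes and bars are medians, which for the raised run at 28.25, 647.5 and 827 in drought and 69.1, 141 and 300.5 in control.

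How the members changed with seed age was asked with the mean of drought and control on the log2 scale, a quantity that does not enter the drought change but comes from the same libraries. Of the 48 raised genes, 40 were at least 2-fold higher at day 50 than at day 30, 4 were within 2-fold and 4 were at least 2-fold lower. Among all admitted genes these shares were 12.5%, 73.9% and 13.6%. The median rise was 3.21 on the log2 scale among the raised genes, beside 0.02 over all admitted genes. The level limit used the mean of all 6 libraries, so a gene low at day 30 could be admitted through its later levels. As a description only, most raised genes rose with seed age in these libraries. Set beside them were the 208 genes that were higher in drought by at least 0.5 on all 3 days. Of these, 133 were 2-fold higher at day 50 than at day 30, with a median of 1.53. They were not cut to the largest changes as the members were. At the like limit of 0.5, the 135 genes that met the raised pattern had a median of 2.59. The difference between these groups was not tested.

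The 4 raised genes that declined with age had the same order of treatments against a falling level. The member on A05 among them had 69.3, 15.2 and 8.40 scaled reads in drought seeds at days 30, 40 and 50, against 334, 3.595 and 1.03 in control seeds. Its levels at days 40 and 50 rested on 9 and 8 reads in drought, against 4 and 1 in control. The counting intervals of drought over control were wide, at 1.18 to 18.8 for day 40 and 1.1 to 363 for day 50. The one on A08 had 363, 128 and 429 in drought, against 685, 39.5 and 43.1 in control. In drought seeds the first of these dropped less steeply than in control seeds, and the second was back above its day 30 level by day 50. The other two had 139, 65.8 and 59.8 in drought against 458, 14.4 and 21.6 in control, and 421, 670.3 and 206 in drought against 929, 337 and 113 in control.

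The lowered genes differed among themselves in their course with seed age. In drought seeds 28 of the 32 were at least 2-fold lower at day 50 than at day 30, as were 18% of admitted genes, and in control seeds 6 were, as were 10.9%. These values share their libraries with the choice. Of the 32, 3 were at least 2-fold higher at day 50 than at day 30 in the mean of both treatments, 17 were within 2-fold and 12 were at least 2-fold lower, with a median of -0.87. With division by column totals 25 of the 32 were at least 2-fold lower, while the median over all admitted genes moved to -0.52 from 0.02 and their share that was 2-fold lower to 26.7% from 13.6%. Over the 140 genes lower in drought by at least 0.5 on all 3 days, 74 were at least 2-fold lower and the median was -1.39. At that like limit of 0.5, the 127 genes that met the lowered pattern had a median of -1.07. The highest level in drought seeds fell on day 30 in 27 of the 32 lowered genes, and the highest level in control seeds fell on day 40 in 21. Both held together in 17, and in 6.03% of all admitted genes. Among all admitted genes 35.3% were highest at day 30 in drought and 22.2% at day 40 in control. These orders share their libraries with the values that chose the genes.

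**Figure D4:**
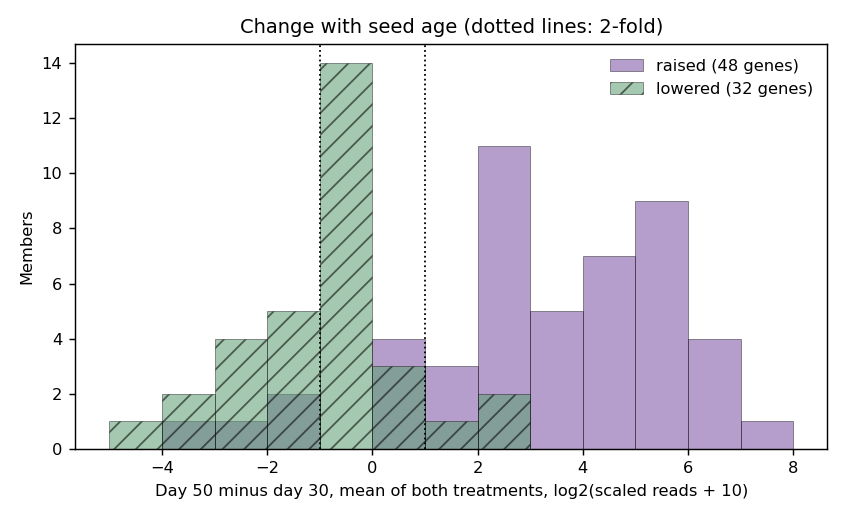
Number of members by the change from day 30 to day 50 in the mean of both treatments, on the log2 scale of scaled reads plus 10, for 48 raised and 32 lowered genes, with dotted lines at 2-fold. Raised genes lie mostly to the right of 2-fold (40 of 48), and 17 of the 32 lowered genes lie between the lines.

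Drought seeds of day 40 were also set beside control seeds of day 50. The raised genes had a median difference of 0.39 on the log2 scale, and drought at day 40 was above control at day 50 in 36 of 48. The lowered genes had a median of -0.74, and drought at day 40 was below control at day 50 in 29 of 32. Over all admitted genes the median was -0.01, with 48.8% above and 51.1% below. Of the 208 genes higher in drought by at least 0.5 on all 3 days, 129 were above, with a median of 0.19. Of the 140 lower on all 3 days, 95 were below, with a median of -0.28. Both libraries took part in choosing the members and these groups, so this is a description.

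Scaled reads are not divided by gene length, and the authors' FPKM, which are, place the members among other genes. The raised genes had a median of 2.94, 54.55 and 102 FPKM in drought seeds at days 30, 40 and 50, against 6.69, 16.6 and 32.7 in control seeds. The lowered genes had 11.5, 3.70 and 1.965 FPKM in drought seeds, against 6.45, 11.1 and 7.05 in control seeds. Over all admitted genes the medians lay between 9.53 and 10.2 FPKM in the 6 libraries. Per length, the median raised gene was therefore below the median admitted gene at day 30 and above it at days 40 and 50 in both treatments. With FPKM in place of counts, 47 of 48 raised and 32 of 32 lowered genes kept the sign of their change on all 3 days. The exception had drought changes of 0.36, -0.67 and 1.44 in FPKM, against -0.72, 0.89 and 0.87 in counts.

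Gene length was not used in the choice, and raised members were shorter than lowered members. The median length was 1264 bases in the raised and 2198 in the lowered, beside 1671 over all admitted genes. Genes of up to 700 bases made up 16 of the 48 raised and 1 of the 32 lowered members, and 8.375% of admitted genes. Genes of over 2000 bases made up 10 raised and 18 lowered members, and 36.7% of admitted genes. A split by length was not particular to this pattern. With day 40 opposite to the others, the median was 796.5 bases where drought was higher at day 40 and 2459 where it was lower. With day 50 opposite, it was 1281 and 2064 in the same order. With all days alike it was 1344 for genes higher and 1563 for genes lower in drought. The drought change itself followed length among all admitted genes, with opposite signs at days 30 and 40. The median change at days 30, 40 and 50 was -0.11, 0.45 and 0.11 for genes of up to 700 bases, and 0.09, -0.35 and 0.02 for genes of over 3000 bases.

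With the length trend of each day removed, the difference in length between the directions did not hold. A new choice of 80 genes then had a median length of 1470 bases in the raised and 1185 in the lowered. A new choice on FPKM, with no trend removed, had 908 and 969.5 bases. The raised pattern was met by 1.87% of genes of up to 700 bases as computed and by 0.713% with the trend removed. The lowered pattern was met by 0.178% of these genes as computed and by 0.847% with the trend removed. The members themselves mostly stayed: 45 of 48 raised and 31 of 32 lowered still met the pattern, and the median changes were -0.86, 1.33 and 1.20 in the raised and 0.75, -1.22 and -1.40 in the lowered. What sets the length trend was not tested.

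**Figure D5:**
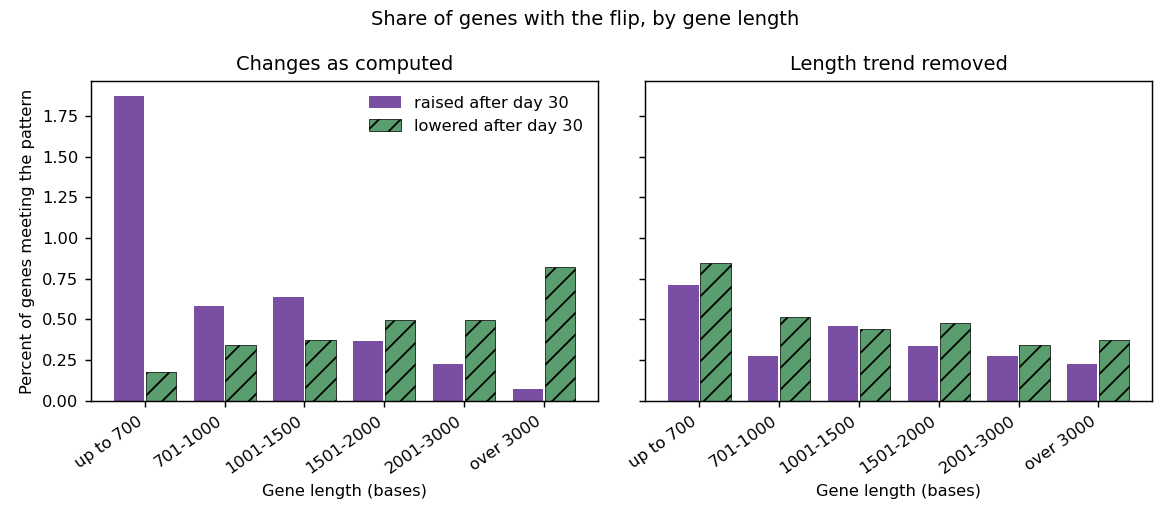
Percent of admitted genes that met the raised or the lowered pattern in 6 classes of gene length in bases, as computed on the left and with the length trend removed on the right. On the left the raised share is highest among the shortest genes, at 1.87%, and the lowered share among the longest, at 0.823%, and on the right both directions are highest among the shortest genes, at 0.713% and 0.847%.

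The members were spread over the genome as far as their IDs tell. In this naming scheme the letters A and C stand for the subgenomes. Of the raised genes 20 were A and 28 were C genes, and of the lowered 13 were A and 18 were C genes, with 1 on neither. Over all admitted genes 48.9% were A and 50.96% were C genes. The raised genes came from 18 chromosomes and the lowered from 17, with 5 raised and 2 lowered genes not placed on a chromosome. Chromosome C03 held the most, with 7 raised and 4 lowered genes among its 2162 admitted genes. How reads that fit an A gene and its C counterpart equally well were assigned is not stated, which leaves each member's value open to that error.

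The split between the directions depended on the scaling of libraries and on the pseudocount. The drought library of day 40 had 10314859 counted reads and the smallest size factor, 0.592, while the other 5 libraries held 12209126 to 16177156 reads with factors of 0.953 to 1.56. With division by column totals alone, the median change of all admitted genes at day 40 was -0.45, against -0.01 with size factors. A new choice then held 27 raised and 53 lowered genes, and 36 of the 48 raised and all 32 lowered members still met the pattern. With trimmed mean of M values (TMM) scaling a new choice held 44 raised and 36 lowered genes. With 1 added to the scaled reads in place of 10 it held 67 raised and 13 lowered genes, and with 30 added it held 38 raised and 42 lowered genes.

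The pattern was also set beside the other ways in which 3 days can combine, under the same limits on level and size. Day 30 stood opposite to the later days in 262 genes, or 0.978% of admitted genes. Day 40 stood opposite to the others in 139 (0.519%) and day 50 in 71 (0.265%), while 348 (1.3%) changed alike on all days. At a size of at least 1 the counts were 13, 5, 2 and 31. These comparisons have 1 library per treatment and day, and the differences between the counts were not tested.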

How the data were processed

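The authors deposited a table of whole-number read counts per gene for the 6 libraries with a gene length, and 1 file of values per library read as FPKM. The deposited FPKM were so read because the submitters' processing notes name Cufflinks and the values roughly follow count per length. The sources used here name no aligner, counting tool, genome build or strand handling. Per the labels' protocols, RNA was extracted with Trizol and read as pairs of 100 bases.

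Size factors were the median of ratios from DESeq2 1.42.0 (R 4.3.3), and TMM factors came from edgeR 4.0.16. The selection was tried on simulated counts with planted changes larger than most members had at day 30, and with counting error only. That trial does not show how well smaller changes are picked out, or how plants differ. Counting intervals are exact binomial at 95% and cover counting error only. The length trend was a lowess fit (fraction 0.3) of the change on log2 length, per day. FPKM changes used a pseudocount of 0.512. No test across genes was run, since each treatment had 1 library per day and the members were chosen on these values. The members, lists and comparisons were chosen with earlier results of these data known. The printed IDs are the 2 genes of each direction with the largest smallest change. The alternatives were other scalings, pseudocounts of 1 and 30, other level limits, new gene models, the length trend and FPKM.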

Additional observations from a re-analysis of the deposited data

Results flagged for a closer look

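A difference between days in the direction of the drought change was seen in 48 members that were lower in drought at day 30 and higher at days 40 and 50, and in 32 members that were higher at day 30 and lower later. The choice of genes fixes these directions, and the difference between days was not tested, as each treatment had 1 library per day.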

How the results depend on the processing

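No paired analysis was possible because each treatment had 1 library per day, and no library could be left out. Of 117 counts and median lengths recomputed under 9 alternatives, 86 stayed within 1.5 times of the value reported. Some of the 86 could not move. With no level filter or new gene models admitted, the members' own values were unchanged, so their counts by pattern and by age were fixed. Removal of the length trend did not enter the counts by age. With column totals 78 genes met the raised and 255 the lowered pattern, against 135 and 127, a new choice held 27 raised genes, and 25 lowered members in place of 12 were 2-fold lower at day 50 than at day 30. With a pseudocount of 1, 224 genes met the raised pattern and 41 members were chosen again. With a pseudocount of 30, 65 met the raised pattern, and the counts with day 30, 40 or 50 opposite, or all days alike, were 151, 76, 32 and 190. With no level filter the raised and lowered counts were 293 and 265, those 4 counts were 558, 352, 259 and 759, and 40 members were chosen again. With a mean of 20 to 500 CPM, which admits fewer genes, they were 59 and 43, then 102, 43, 25 and 127. There 41 members were admitted, met the pattern and were chosen again, of which 26 raised were 2-fold higher and 4 lowered 2-fold lower at day 50. With FPKM 43 members were chosen again, and a new choice had a median length of 908 bases in the raised and 969.5 in the lowered. With the length trend removed these were 1470 and 1185. For the counts that moved with pseudocount, totals or FPKM, the cause was not tested. The median changes of the members kept their signs under all 9 alternatives, but not all of these could turn a sign. With no level filter or with new gene models admitted the changes of the members were the same values. The limit of 20 to 500 CPM only left some members out. Libraries under 10 reads limit precision in drought at day 30 for 3 raised members, at days 40 and 50 in both treatments for 1 raised member, and in drought at day 40 or 50 for 6 lowered members.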

Other observations

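New gene models, which carry no Bna ID and were not admitted, met the pattern in 13 of 838 genes at the same level, or 1.55%. Among admitted genes the share was 0.978%, with 0.504% raised and 0.474% lowered. Of the 13 new models, 12 were lowered and 1 was raised, and 7 had a smallest change at or above that of the last member. The difference from admitted genes was not tested. The new model with the largest smallest change, of 4418 bases, had 204, 127 and 83.98 scaled reads in drought seeds at days 30, 40 and 50, against 70.4, 361 and 561 in control seeds. It thus declined with age in drought and rose in control. With new models admitted, a new choice of 80 held 45 raised and 35 lowered genes.

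On chromosome A01, 3 lowered members lay close together near the start of the numbering, within 33 gene numbers, a stretch singled out after the values were seen. The stretch held 16 admitted genes. Of the other 13, 2 had the signs of the lowered pattern and 0 met it in size, and their median changes were 0.24, 0.14 and -0.01 at days 30, 40 and 50. In the rest of A01, 13.2% of 1142 admitted genes had those signs. Of all pairs of placed members on the same chromosome, the other pair within 50 gene numbers lay 29 apart on C04 and held 1 raised and 1 lowered gene.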
